A study of Mus musculus with 25 samples.

Results

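The genes examined here are those that make, convert and restrain the polyamines in mouse skeletal muscle. A list of 10 genes (Amd1, Amd2, Odc1, Smox, Sat1, Srm, Sms, Oaz1, Oaz2 and Azin1) was matched by symbol to the deposited muscle table of 8829 genes, and 9 of the 10 had values in all 25 libraries. Sat1, which encodes the acetyltransferase that starts polyamine export and back-conversion, was not analysed here. The mice were male SAMP8 mice, an inbred strain that shows early signs of aging, and were 8 months old when treatment began. Thymol mice (n = 14) received thymol, a terpenoid of thyme and oregano, dissolved in corn oil, at 20 mg/kg body weight per dosing day. Control mice (n = 11) received the corn oil vehicle alone. Both were dosed by oral gavage on most, but not all, days of each week for 3 months. Each library came from the gastrocnemius, a calf muscle, of a separate mouse, and mice are named below by the last number in their label. All animals shared the SAMP8 background, so the data hold no normally aging strain and no younger age.

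Polyamines are small positively charged molecules that bind nucleic acids and are needed for growth and for translation. Ornithine decarboxylase (Odc1) makes putrescine, and spermidine synthase (Srm) and spermine synthase (Sms) then add aminopropyl groups taken from decarboxylated S-adenosylmethionine, which the Amd enzymes supply, to give spermidine and spermine. Spermine oxidase (Smox) turns spermine back into spermidine, the antizymes (Oaz1 and Oaz2) bind ornithine decarboxylase and send it to the proteasome, and the antizyme inhibitor (Azin1) holds antizymes away from it. In skeletal muscle, spermine oxidase is known as a gene whose level falls when muscle wastes, and Amd1, Amd2 and Smox are known as androgen-responsive.

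Libraries were made by 3′ end sequencing, which yields about 1 read per transcript molecule whatever the transcript's length, so levels could be set side by side between genes without a length correction. Values are log2 CPM, where CPM is a gene's reads per 1000000 reads of the library after normalisation between libraries. Depth recovered from the values ran from 4463818 to 9463418 reads per library with a median of 7503259, and transcripts of the mitochondrial genome took 22% to 33.9% of the reads. All 15 of 15 skeletal muscle markers were in the table, led by the giant sarcomere protein gene Ttn at 15.46 ± 0.17 (SD, n = 25), and the fast myosin gene Myh4 stood at 15.04. Because these were bulk samples of whole muscle, fewer cells of a type and less RNA per cell cannot be told apart in any value below.

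The genes at the adenosylmethionine decarboxylase step, Amd1 and Amd2, are near copies of each other, and this bears on every value given for them. Amd1 lies at chr10:40287458-40302186 (GRCm38, minus strand) and is spliced from 8 or 7 exons in its annotated coding transcripts. Amd2 lies at chr10:35708675-35711892 on the same strand as a single exon. Their transcripts were 99.7% identical over 3198 aligned bases with 10 differences, and no difference lay within 529 bases of the Amd1 transcript end, the stretch that 3′ end reads come from. Of the 31-base words of the Amd1 end, 99.4% also occurred in Amd2, and 96.8% of the Amd2 words occurred in Amd1. How reads that match both genes were assigned is not given in the sources used here, so the division of reads between Amd1 and Amd2 is uncertain, and results are also given for their summed reads.

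The sequences in front of the members are shown because some of these genes moved together between mice, and because the Amd1 and Amd2 fronts differ although the transcripts do not. Each is the 250 bases before the RefSeq start on GRCm38.p6, written 5′ to 3′ on the strand of the gene, with GC boxes (GGGCGG, found in 32.7% of 32851 promoters of the same length) and CCAAT boxes (CCAAT, 33.8%) in capitals on either strand. The Amd1 window was chr10:40302189-40302438 and the Amd2 window was chr10:35711892-35712141, both on the minus strand. The Oaz1 window was chr10:80826406-80826655 and the Oaz2 window was chr9:65676298-65676547, both on the plus strand. The Oaz2 window lies inside the annotated gene, which also has an earlier start.
Amd1: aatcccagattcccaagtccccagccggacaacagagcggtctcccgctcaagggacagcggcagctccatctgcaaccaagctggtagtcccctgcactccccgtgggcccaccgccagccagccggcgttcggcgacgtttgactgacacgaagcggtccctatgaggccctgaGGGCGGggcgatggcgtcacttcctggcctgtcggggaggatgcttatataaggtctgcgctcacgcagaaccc
Amd2: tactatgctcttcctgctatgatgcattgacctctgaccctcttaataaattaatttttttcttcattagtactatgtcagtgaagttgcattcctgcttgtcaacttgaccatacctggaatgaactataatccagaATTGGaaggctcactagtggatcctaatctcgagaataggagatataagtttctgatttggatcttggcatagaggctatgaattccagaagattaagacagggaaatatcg
Oaz1: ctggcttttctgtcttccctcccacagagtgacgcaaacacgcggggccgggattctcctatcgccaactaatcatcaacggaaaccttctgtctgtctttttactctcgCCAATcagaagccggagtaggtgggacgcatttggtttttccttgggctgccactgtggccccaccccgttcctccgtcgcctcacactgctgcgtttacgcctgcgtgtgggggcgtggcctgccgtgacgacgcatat
Oaz2: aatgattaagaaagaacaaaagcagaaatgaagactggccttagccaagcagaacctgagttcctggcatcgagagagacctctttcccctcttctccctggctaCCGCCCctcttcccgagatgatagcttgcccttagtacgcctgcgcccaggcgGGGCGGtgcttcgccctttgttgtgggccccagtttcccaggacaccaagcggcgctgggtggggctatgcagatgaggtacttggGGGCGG

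The Amd1 window held 64.4% G and C and 1 GC box, from 74 to 69 bases before the start. The Amd2 window held 37.6% G and C, no GC box and 1 CCAAT box, which the capitals show as its reverse complement. The longest run of letters that these 2 windows shared was 7 bases, against near identity downstream. The Oaz1 and Oaz2 windows each held 58.0% G and C, with 1 CCAAT box in Oaz1 and 3 GC boxes in Oaz2. Smox had 6 GC boxes in a window of 68% G and C, and Odc1 had 4. The Smox window lies inside the annotated gene, and the Odc1 window runs past the annotated gene start. None of these 6 windows held an E-box (CACGTG, 6.02% of promoters), a CRE (TGACGTCA, 1.55%), a TATA box spelled TATAAA (12.4%) or an AP-1 word (TGANTCA, 6.75%), each searched on both strands. For Sms, RefSeq gives 2 starts: 1 window held an E-box, from 196 to 191 bases before the start, with 1 CCAAT box, and the other held 4 GC boxes, some of which overlap. The Sms window with the GC boxes lies inside the annotated gene. Srm and Azin1 were not searched. A match describes letters in the window only.

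The 9 genes covered a wide range of levels. Together they took 392 to 784 of every 1000000 recovered reads of a library, before normalisation between libraries, with a median of 471. Smox, the catabolic enzyme, took the greatest part of those reads in the median mouse, 34.7% (range 26.2% to 50.8%). The antizyme Oaz2 took 25.6% and Sms took 13.1%, whereas Odc1, which starts the pathway, took 1.59% and Srm took 0.986%. Among all genes of the table, the mean level of Smox stood at percentile 94.6 and that of Oaz2 at 92.5, against 22.3 for Odc1 and 7.51 for Srm. Thus the transcripts of the gene that oxidises spermine and of the antizymes were abundant in this muscle, and those of ornithine decarboxylase and spermidine synthase were scarce.

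**Figure D1:**
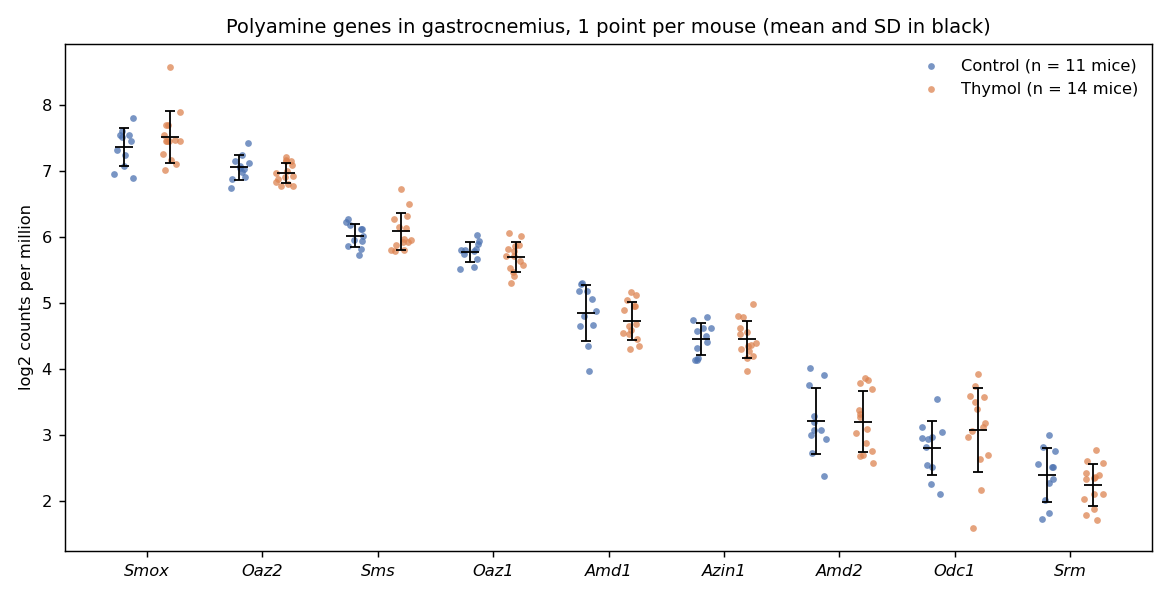
Level of each of the 9 genes in log2 CPM (y axis), with 1 point per mouse for Control (blue, n = 11) and Thymol (orange, n = 14), and with the mean and SD in black. The genes are ordered by mean level from Smox to Srm, the groups overlap for every gene, and Odc1 reaches from 1.59 to 3.92.

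Neighbours in the order of mean level were compared within each mouse by a two-sided sign-flip permutation test over the 25 mice, and 7 of the 8 neighbouring pairs differed. Smox exceeded Oaz2 by 0.44 ± 0.34 (SD of the difference) on the log2 scale, and was the higher in 24 of 25 mice (permutation test with Benjamini-Hochberg adjustment over 8 pairs, adjusted p = 2e-05, from an unadjusted p of 1e-05 that is the smallest 100000 permutations can give). Oaz2 exceeded Sms by 0.95 ± 0.26 in all 25 mice, with the same p. Sms exceeded Oaz1 by 0.32 ± 0.27 in 21 of 25 mice (permutation test, adjusted p = 3.2e-05). As counted, the antizyme transcripts thus lay on either side of spermine synthase. The place of Oaz1 is uncertain, because 56.9% of the words at its transcript end also occurred in the pseudogene Oaz1-ps.

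Lower in the order, Oaz1 exceeded Amd1 by 0.95 ± 0.31 in all 25 mice. Amd1 exceeded Azin1 by 0.33 ± 0.38 in 21 of 25 mice (permutation test, adjusted p = 0.000263), and Azin1 exceeded Amd2 by 1.24 ± 0.41 in all 25. Amd2 and Odc1 were the neighbours that were not separated: the difference was 0.25 ± 0.79 and Amd2 was the higher in 13 of 25 mice (permutation test, p = 0.127). Odc1 exceeded Srm by 0.65 ± 0.69 in 19 of 25 mice (permutation test, adjusted p = 0.00024). Places in the order that involve Amd1, Amd2 or Oaz1 rest in part on how shared reads were assigned.

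Ornithine decarboxylase, the first enzyme of the pathway, was the most variable of the 9. Odc1 (chr12:17544794-17551505, plus strand) ran in Control mice from 2.10 in mouse 35 through a median of 2.94 to 3.54 in mouse 27. In Thymol mice it ran from 1.59 in mouse 9 through a median of 3.15 to 3.92 in mouse 21, so that the Thymol mice held both ends of the range and enclosed the Control mice. The highest mouse exceeded the lowest by 5.02-fold, on 20 to 130 reads per library. Of the words at the Odc1 transcript end, 26% also occurred elsewhere, chiefly in Gm7993. A small nucleolar RNA gene, Gm22748, also overlaps Odc1 on the same strand.

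At the decarboxylase step that feeds both synthases, Amd1 ran in Control mice from 3.97 in mouse 1 through a median of 4.89 to 5.30 in mouse 27. In Thymol mice it ran from 4.31 in mouse 28 through 4.67 to 5.17 in mouse 3. The Thymol values lay wholly within the range of the Control values. Amd2 ran from 2.38 in mouse 19 through 3.08 to 4.02 in mouse 31 among Control mice. It ran from 2.57 in mouse 30 through 3.18 to 3.86 in mouse 9 among Thymol mice, again inside the Control range. Amd2 made up 16.9% to 39.3% of the reads of the pair, with a median of 22.8%.

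The synthases differed in level and in steadiness. Srm (chr4:148591503-148594993, plus strand), which makes spermidine, ran from 1.72 in mouse 15 through 2.52 to 2.99 in mouse 31 among Control mice and from 1.71 in mouse 26 through 2.34 to 2.76 in mouse 16 among Thymol mice. These values rested on only 17 to 58 reads per library. Sms (chrX:157443855-157492287, minus strand), which makes spermine, ran from 5.73 in mouse 1 through 6.01 to 6.28 in mouse 23 among Control mice, on 324 to 972 reads over all mice. In Thymol mice it ran from 5.80 in mouse 24 through 5.96 to 6.73 in mouse 20, and the groups overlapped with a longer upper tail in Thymol. The pseudogene Sms-ps shared 27.7% of the words at the Sms transcript end.

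Spermine oxidase was the most abundant member in both groups. Smox (chr2:131491496-131525922, plus strand) ran from 6.90 in mouse 19 through 7.46 to 7.80 in mouse 10 among Control mice. It ran from 7.01 in mouse 30 through 7.46 to 8.58 in mouse 21 among Thymol mice, on 808 to 3046 reads over all mice. The group medians were alike, and mouse 21 of the Thymol group, which was also the highest for Odc1, stood above every other mouse. No word at the Smox transcript end occurred in the annotated transcripts of another gene, so this search found no source of shared reads.

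Among the regulators, Oaz1 (chr10:80826656-80829290, plus strand) ran from 5.52 in mouse 1 through 5.80 to 6.03 in mouse 15 among Control mice and from 5.31 in mouse 30 through 5.71 to 6.07 in mouse 9 among Thymol mice. Oaz2 (chr9:65668001-65690300, plus strand) ran from 6.74 in mouse 31 through 7.04 to 7.43 in mouse 18 among Control mice and from 6.77 in mouse 30 through 6.95 to 7.21 in mouse 20 among Thymol mice. Azin1 (chr15:38487427-38519266, minus strand) ran from 4.13 in mouse 14 through 4.50 to 4.79 in mouse 35 among Control mice and from 3.97 in mouse 11 through 4.38 to 4.98 in mouse 34 among Thymol mice. The antizymes were the steadiest members, with the highest mouse 1.69-fold above the lowest for Oaz1 and 1.62-fold for Oaz2, and the groups overlapped throughout. The pseudogene Oaz1-ps shared 56.9% of the words at the Oaz1 transcript end, so Oaz1 is uncertain in the same way as the Amd genes. Of the words at the Oaz2 end, 17.5% occurred elsewhere, and none of those of Azin1 did. Azin1 overlaps the opposite-strand gene Gm49077, and whether the counting used the strand is not given in the sources used here.

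The genes of the pathway also ranged widely in their spread between mice, which was compared between genes only as a description. Within groups, the SD on the log2 scale was 0.55 for Odc1, at percentile 94.0 among all genes, and 0.48 for Amd2, at percentile 88.9. It was 0.35 for both Amd1 and Smox, 0.36 for Srm, 0.27 for Azin1, 0.24 for Sms, 0.20 for Oaz1 and 0.17 for Oaz2, against a median of 0.28 over all genes. Low genes spread more in part because they are counted on few reads, so the SD expected from counting alone was set beside each. For Odc1 it was 0.19, and the observed variance was 8.07 times that of counting. For Srm it was 0.24 and the ratio was 2.32, the lowest of the 9. For Smox, with a counting SD of 0.04, the ratio was 73.2, the highest of the 9. The ratio rises as counting error falls with more reads, so it does not rank the genes by their spread beyond counting.

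**Figure D2:**
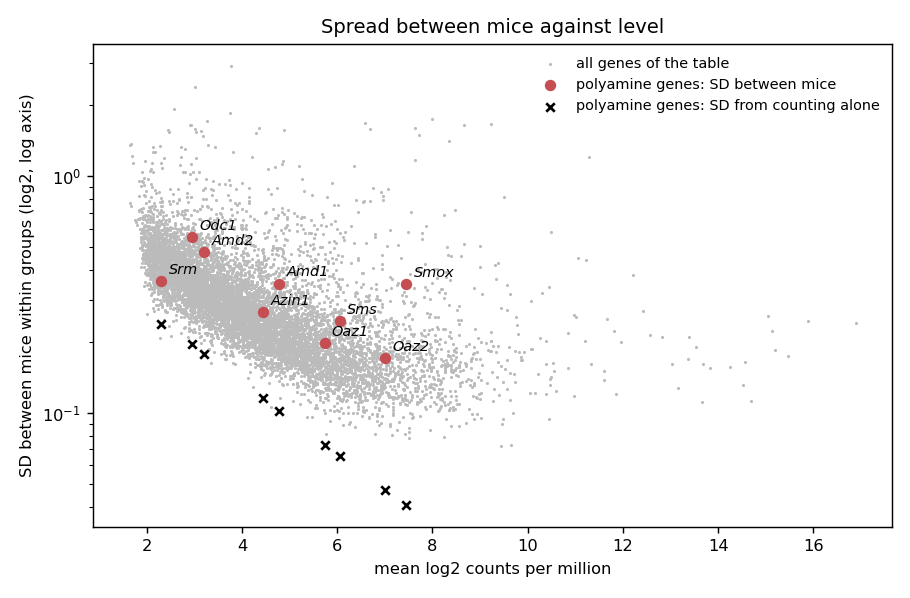
Within-group SD between mice (y axis, log scale) against mean log2 CPM (x axis) for all 8829 genes in gray and the 9 polyamine genes in red, with the SD that counting alone would give as black crosses. Among all genes the SD of Odc1 (0.55) stood at percentile 94.0, that of Smox (0.35) at 69.2 and that of Oaz2 (0.17) at 15.6. Ranks among genes of like level were not computed.

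Whether thymol altered the spread itself was tested by permuting mice between groups (two-sided permutation test on the mean absolute deviation from the group median), and 0 of the 9 genes differed after Benjamini-Hochberg adjustment. No gene reached an unadjusted p of 0.05 either, and the smallest was 0.161, for Oaz1 (permutation test, adjusted p = 0.817). Odc1, with an SD of 0.41 among Control and 0.64 among Thymol mice, had mean absolute deviations of 0.31 and 0.47 (permutation test, p = 0.285).

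Several of these genes rose and fell together from mouse to mouse. After each group's mean was removed, 30 of the 36 pairs of members had a positive Pearson r over the 25 mice. The share of positive pairs among all genes was not counted, so this number has no baseline. The median r of the member pairs was 0.24, and so was their median absolute r. In 3 pairs, all positive, the relation passed a two-sided permutation test (100000 permutations of mice within groups) after Benjamini-Hochberg adjustment over the 36 pairs, and 7 pairs had an unadjusted p under 0.05. The 3 pairs joined Amd2 with Oaz1, Oaz1 with Oaz2, and Amd1 with Smox. An r as large as the smallest of these, 0.555, occurred in 1.04% of the 38971206 pairs that can be formed from all genes, and the median absolute r of all pairs was 0.156. Odc1 was joined to none of them, and 5 of the 6 negative pairs involved Odc1. Those 5 values were weak, from -0.19 with Amd2 (permutation test, p = 0.374) to -0.02 with Srm (permutation test, p = 0.931).

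**Figure D3:**
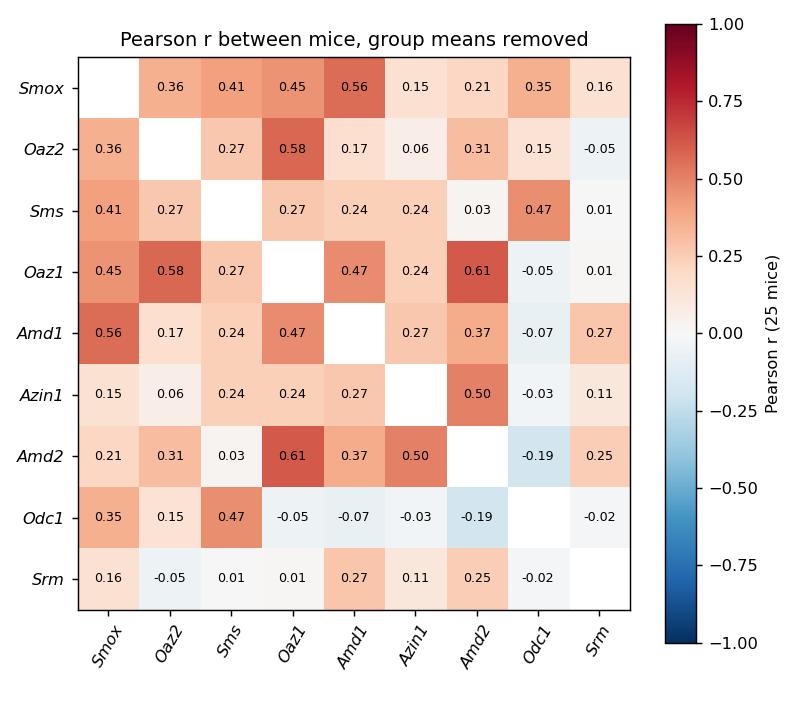
Pearson r for each of the 36 pairs of polyamine genes over 25 mice after removal of the group means, with red for positive and blue for negative values. The highest cells are Amd2 with Oaz1 (0.61), Oaz1 with Oaz2 (0.58) and Amd1 with Smox (0.56). Odc1 shows weak values, from -0.19 to -0.02, with Amd1, Amd2, Srm, Oaz1 and Azin1.

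For the decarboxylase Amd2 and the antizyme Oaz1, Pearson's r was 0.611 (permutation test, p = 0.00138, adjusted p = 0.0271) and Spearman's rho was 0.572 (permutation test, p = 0.00396, adjusted p = 0.0422). It was 0.609 without the 2 mice farthest from the median of Amd2. Within Control mice r was 0.50 and within Thymol mice it was 0.700. The sign was thus the same in both groups. Both genes have near copies in the genome, as given above.

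The antizymes Oaz1 and Oaz2 had a Pearson r of 0.578 (permutation test, p = 0.00226, adjusted p = 0.0271) and a Spearman rho of 0.657 (permutation test, p = 0.00065, adjusted p = 0.0234). Without the 2 mice farthest from the Oaz1 median r was 0.505. It was 0.361 in Control mice and 0.753 in Thymol mice, and the difference between the groups was not tested. Control mice 18 and 31, the highest and the lowest for Oaz2, lay near the mean for Oaz1.

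The third pair joined the decarboxylase Amd1 and the oxidase Smox, with a Pearson r of 0.555 (permutation test, p = 0.00207, adjusted p = 0.0271) and a Spearman rho of 0.595 (permutation test, p = 0.00291, adjusted p = 0.0422). The r stayed at 0.555 without the 2 mice farthest from the Amd1 median. It was 0.700 in Control mice and 0.493 in Thymol mice. With the reads of Amd1 and Amd2 summed, r was 0.528 with Smox (permutation test, p = 0.00398) and 0.619 with Oaz1 (permutation test, p = 0.00056). These 2 values do not depend on how the assigned reads were divided between Amd1 and Amd2. Amd2 gave a median of only 22.8% of the sum, so the sum does not test Amd2 with Oaz1 by itself. Any reads left unassigned, or given to the pseudogenes Amd-ps3 and Amd-ps4, lie outside it.

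**Figure D4:**
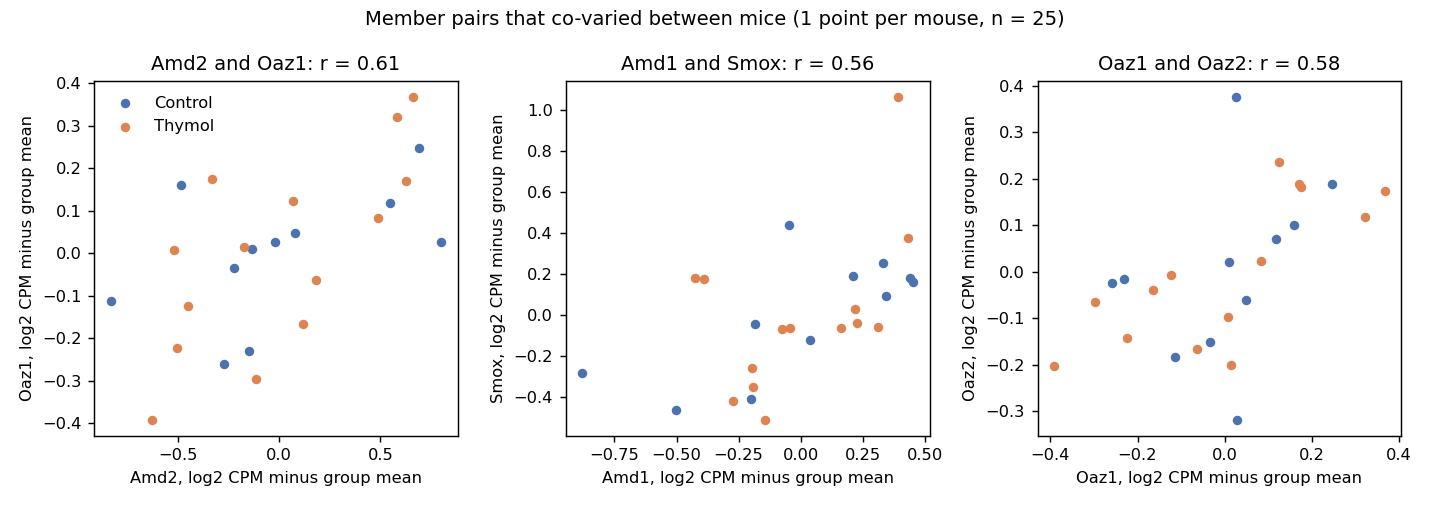
The 3 pairs of genes that co-varied between mice, each as log2 CPM minus the group mean, with 1 point per mouse for Control (blue, n = 11) and Thymol (orange, n = 14). Points run from lower left to upper right in each panel (r = 0.61, 0.56 and 0.58), with single mice off the trend, such as the Thymol mouse at the top of the Amd1 and Smox panel.

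These calls stood close to the threshold, and 0 pairs passed in Control mice alone or in Thymol mice alone. When single mice were left out, the number of pairs that passed was 0 without Thymol mouse 3, 9, 11 or 30 or Control mouse 19, 1 without Thymol mouse 21, 5 without Thymol mouse 28 and 6 without Control mouse 15. The r values themselves ranged from 0.562 to 0.678 for Amd2 with Oaz1, from 0.536 to 0.647 for Oaz1 with Oaz2 and from 0.511 to 0.609 for Amd1 with Smox. Other pairs reached an r of 0.501 (Amd2 with Azin1, permutation test, adjusted p = 0.0872), 0.473 (Amd1 with Oaz1, permutation test, adjusted p = 0.0872) and 0.466 (Odc1 with Sms, permutation test, adjusted p = 0.173). The near copies Amd1 and Amd2 had an r of 0.369 (permutation test, p = 0.0802, adjusted p = 0.289).

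The genes whose pattern over the 25 mice was most like that of a member were found by the same measure across the whole table, as a description. They are the extremes of many correlations, and none was tested. Nearest to Odc1 were the DNA repair gene Xrcc1 (r = 0.754), the actin-linked Afap1l1 (0.635) and the DNA repair gene Xpa (0.633). Farthest was Tmem65 (-0.70), which encodes a mitochondrial membrane protein. Nearest to Amd1 were the nuclear receptor gene Nr2f6 (0.751), the glycogen phosphatase gene Epm2a (0.724) and the phosphatidylinositol transfer gene Pitpna (0.719), with the small Maf gene Mafk (-0.69) opposite. Nearest to Smox were the bicarbonate transporter gene Slc4a4 (0.656), Mxra7 (0.656) and Gpc1 (0.654), with the glutamine transporter gene Slc38a3 (-0.75) opposite. Gpc1 encodes a glypican that has been linked to polyamine uptake. No gene was nearest to more than 1 of these members.

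Treatment with thymol left no detectable mark on the polyamine genes at this sample size. In limma fits over all 8829 genes, 0 of the 9 members differed between Thymol and Control after Benjamini-Hochberg adjustment, where the share of all genes called was 0%. No member had an unadjusted p under 0.05, against 3.53% of all genes (1.83% higher and 1.7% lower with Thymol), and limma-voom on the recovered reads also called 0. The difference was above 0 for 3 members and below 0 for 6, with a median of -0.02 on the log2 scale, whereas 4375 of all genes were above 0 and 4454 below.

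Odc1 had the largest difference, 2.80 ± 0.41 in Control mice (SD, n = 11) and 3.08 ± 0.64 in Thymol mice (SD, n = 14), with 10 of the 14 Thymol mice above the Control median. The log2 fold change was 0.28 with a standard error of 0.21 and a 95% confidence interval from -0.15 to 0.70 (limma, p = 0.190, Benjamini-Hochberg adjusted p = 0.9999), which is 1.21-fold with limits of 0.904 and 1.62. The next was Smox, at 7.36 ± 0.29 and 7.52 ± 0.39, with a log2 fold change of 0.16 (standard error 0.13, interval -0.10 to 0.42). Without Thymol mouse 21 the Smox value was 0.08. Without Thymol mouse 9, the lowest for Odc1, the Odc1 value was 0.39 with an unadjusted limma p of 0.0362, which did not hold after adjustment over all genes. With the first label number as a replicate block the Odc1 value turned to -0.069 (limma p = 0.767). That fit draws the difference only from mice whose first number occurs in both groups. It thus leaves out Thymol mouse 21, the highest for Odc1, among others.

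For the remaining enzymes, Srm stood at 2.39 ± 0.41 in Control and 2.24 ± 0.32 in Thymol mice, with a log2 fold change of -0.15 (interval -0.46 to 0.16) and 3 of 14 Thymol mice above the Control median. Sms stood at 6.02 ± 0.18 and 6.09 ± 0.29, with a log2 fold change of 0.06 (interval -0.13 to 0.25). Amd1 stood at 4.85 ± 0.42 and 4.73 ± 0.29, with a log2 fold change of -0.11 (interval -0.38 to 0.15). None of these differences exceeded the spread between mice. For the summed Amd1 and Amd2 reads the log2 fold change was -0.09 (interval -0.34 to 0.16, limma p = 0.465).

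Of the 9 members, the antizymes had the narrowest intervals. Oaz1 stood at 5.78 ± 0.15 in Control and 5.70 ± 0.22 in Thymol mice, with a log2 fold change of -0.08 (interval -0.24 to 0.08). Oaz2 stood at 7.06 ± 0.19 and 6.98 ± 0.16, with the same log2 fold change of -0.08 (interval -0.22 to 0.06). Azin1 stood at 4.46 ± 0.24 and 4.45 ± 0.28, with an interval from -0.22 to 0.21. On the linear scale the Oaz2 interval ran from 0.857 to 1.04, so a fall of the antizyme transcript below 0.857 of the Control level lay outside it. For Odc1, Amd2 and Srm the intervals were too wide to bound the response closely.

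The genes around the pathway were read in the same fits. A wider network of 33 genes, the 9 members and 24 others, gave 0 calls after adjustment and 0 at an unadjusted limma p under 0.05. The unadjusted count was 2 without Control mouse 1, Control mouse 15 or Thymol mouse 3. It was 1 without Control mouse 14, 23 or 32 or Thymol mouse 7, 9, 16, 21, 26, 30 or 34, and also 1 with the replicate block, the library index as a covariate or sample weights. Hypusine is a modified residue of translation factor eIF5A that is built with a part of spermidine. Of the 3 genes that make and use it, all 3 had differences below 0, with a median of -0.16. Dhps, the deoxyhypusine synthase, stood at 3.48 ± 0.23 in Control and 3.25 ± 0.35 in Thymol mice, with a log2 fold change of -0.24 (limma p = 0.0632). Dohh, the hydroxylase that completes the residue, had a log2 fold change of -0.16 (limma p = 0.0737), with 2 of 14 Thymol mice above the Control median. Eif5a itself had a log2 fold change of -0.02. None of these passed the test.

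Of the 9 genes of the methionine cycle and salvage, which supply and recycle the aminopropyl donor, 6 had differences above 0 and 3 below, with a median of 0.05. Mri1, an isomerase of methionine salvage, had a log2 fold change of 0.25 (limma p = 0.0839), and Mat2b, the regulatory subunit of S-adenosylmethionine synthetase, had 0.11 (limma p = 0.151). The 6 transport genes split 3 and 3 with a median of -0.0066, the 3 genes of arginine and ornithine had a median of 0.02, and the 3 other enzymes had a median of -0.03. Among the last, the polyamine oxidase Paox had a log2 fold change of -0.22 (limma p = 0.0894) and 1 of 14 Thymol mice above the Control median; Paox was named after its values were seen. No group of genes around the pathway held a gene past the test.

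**Figure D5:**
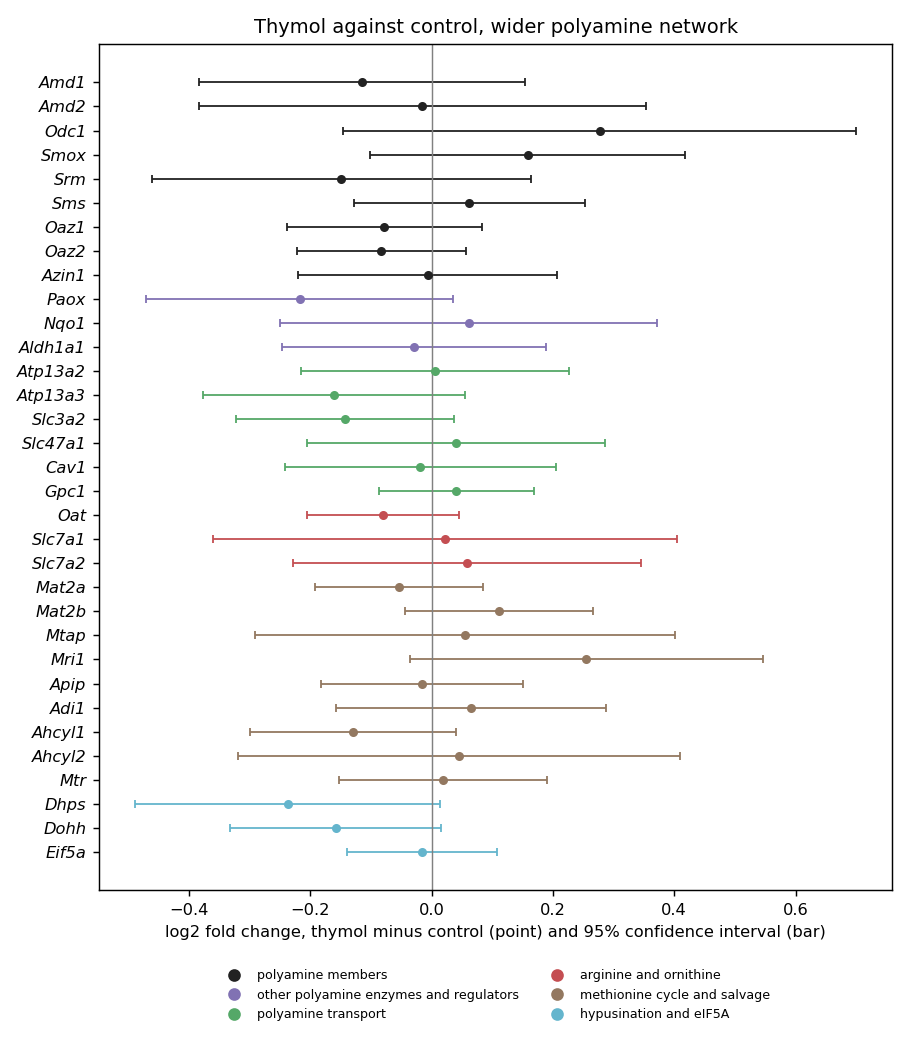
Log2 fold change of Thymol against Control (x axis) for the 33 genes of the wider polyamine network, with the limma estimate as a point and its 95% confidence interval as a bar, colored by role. Every interval includes 0, from Dhps at -0.24 to Odc1 at 0.28.

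Muscle samples differ in fibre type and in the other cells they carry, so the members were set against 13 lists of marker and state genes, the depth and the mitochondrial share. Of the 135 relations over 25 mice, 0 passed the permutation test after Benjamini-Hochberg adjustment by Pearson's r or Spearman's rho. The highest was that of Amd2 with the fast fibre list, an r of 0.622 (permutation test, p = 0.00099, adjusted p = 0.134) and a rho of 0.612. An r at least as large with that list occurred in 2.51% of all genes. Without Control mouse 19 this relation passed the test, with an r of 0.70 (permutation test, adjusted p = 0.027).

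The fast fibre list (9 of 9 genes in the table, led by Myh4) also had an r of 0.525 with Oaz1 (permutation test, adjusted p = 0.226). For Oaz1 that r was 0.092 in Control mice and 0.714 in Thymol mice, whereas for Amd2 it was 0.60 and 0.648, and the difference between groups was not tested. Its summed level was 84859 to 122540 CPM in Control mice and 83303 to 123628 in Thymol mice, and its part in the pair was not tested. Against the slow fibre list (9 of 10 genes, led by Myl3), r was -0.57 for Sms, where rho was -0.40 and r without the 2 mice farthest from the list's median was -0.26. For Azin1 it was -0.49, and -0.41 without those mice. Amd2 had an r of -0.55 with the glucocorticoid and fasting list (15 of 15 genes, led by the atrophy ligase gene Fbxo32) and -0.54 with the adipocyte list (9 of 11 genes, led by Lpl, which muscle fibres also express). Without the 2 mice farthest from each list's median these were -0.37 and -0.48. Smox had an r of 0.521 with the fibroblast list (10 of 10 genes, led by Dcn), where rho was 0.378 and r without the 2 farthest mice was 0.321. Amd1 had an r of -0.50 with the log2 depth of the library (permutation test, p = 0.021, adjusted p = 0.314), and Smox had -0.12 with it. None of these passed the test after adjustment.

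Other lists were led by Lyz2 for leukocytes, Flt1 for endothelium, Hbb-bs for erythroid cells, Jun for immediate-early genes, Tef for clock output, Ncl for Myc targets and nucleolus and Hdac4 for denervation. Odc1 is known as a Myc target, and its r with the Myc and nucleolar list was -0.34 (permutation test, p = 0.113). With the fast fibre list it was 0.052, and over all 13 lists no relation of Odc1 passed the test. The spread of Odc1 was therefore accompanied by no list measured here beyond the threshold.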

How the data were processed

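RNA from frozen gastrocnemius of 25 SAMP8 mice was sequenced from the 3′ end by the QuantSeq FWD kit after 20 cycles of PCR. Per the labels and the study's methods, the authors mapped reads to GRCm38 with STAR 2.5.3, counted them with HTSeq 0.6.1, kept genes with at least 30 reads in at least 6 samples and applied TMM normalisation. The deposited values are log2 CPM of 8829 genes, with a small prior count, so values can fall below 0. All 8829 genes passed that filter on the reads recovered here, and the deposited log2 values gave whole reads for 100.0% of 220725 values within 0.01 read.

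Groups were taken from the sample titles. Thymol was compared with Control by limma 3.58.1 (R 4.3.3) with an intensity trend over all genes and Benjamini-Hochberg adjustment at 0.05. Because depth was recovered from log2 values, no count model was the primary test. Co-variation, order and spread were tested by two-sided permutation (100000 permutations, smallest possible p 1e-05) with scipy 1.17.1 and numpy 2.4.6. The limma fit and the correlation permutation test were each tried on simulated data. A list score was the mean of its genes' z-scores. A counting SD came from the recovered reads and covers counting error only.

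The members, the lists and the tests were chosen with earlier results of these data known. Named genes were all members present, the genes of the wider network with an unadjusted p under 0.05 and, in each direction, the 2 of smallest p, then the 3 highest and the lowest correlates of Odc1, Amd1 and Smox, and the leading gene of each tissue list, of which 1 is not reported here. Positions came from GENCODE M21 and sequences from RefSeq, both on GRCm38. Alternatives covered normalisation, low levels, moderation, covariates, a replicate block, voom and the removal of each mouse.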

Additional observations from a re-analysis of the deposited data

How the results depend on the processing

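The count of members past the adjusted limma threshold was 0 under all 12 alternative fits and in all 25 fits that left out 1 mouse, and the order of levels and the test of spread also kept their calls. The count of co-varying pairs was less stable: 3 as reported, 1 after quantile normalization, 0 in Control mice alone, 0 in Thymol mice alone and 6 with depth and mitochondrial share removed. It ranged from 0 to 6 when 1 mouse was left out, with 0 pairs in 5 of those fits and 3 pairs in 16; the cause was not tested, beyond the fewer mice in each. Relations with the lists ranged from 0 to 1, the 1 without Control mouse 19. Leaving out 1 mouse moved the log2 fold change of Amd2 over a range from -0.10 to 0.065 and that of Azin1 over a range from -0.047 to 0.031, both across 0.

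The labels share 7 first numbers between the groups, and what the number stands for is not given in the sources used here. Over all genes, same-numbered mice did not deviate together on average (mean r -0.0022 over 9 pairs, range -0.18 to 0.10). Such an average cannot show whether some genes follow the number. The mice were treated as unpaired in the main fits. With that number as a replicate block the log2 fold change changed sign for Amd2 (0.093), Odc1 (-0.069), Sms (-0.13) and Azin1 (0.030), and no call was gained. Summing Amd1 and Amd2 and leaving out Thymol mouse 21 with Control mouse 18 were chosen after seeing the data. With the 75% of genes highest in mean level, Odc1, Srm and Mri1 were filtered out and gave no value. Srm, on as few as 17 reads, is the member that depth limits most.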
